A study of Mus musculus with 6 samples.

Results

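The 35 genes described here encode enzymes that make, salvage or balance nucleotides, together with the one-carbon enzymes that supply them. They were chosen by symbol and pathway role, with earlier results of these data known. All 35 had a row among the 13709 of the count table. The cells were CD4+YFP+CD25+ regulatory T cells (Tregs) sorted from C57BL/6 mice and profiled by bulk RNA-Seq, with 3 WT and 3 KO samples. Per the study, both genotypes carried Foxp3Cre, a fusion of YFP and Cre expressed from the Foxp3 locus, and the labels call the WT mice wild type. KO samples also carried the Zfp335fl/fl allele, so that Zfp335, which encodes a zinc finger transcription factor, was deleted where Foxp3 had been expressed. The study's methods give the age of the mice as 2 weeks. The labels named both lymph nodes and spleen as the source and did not say whether a sample came from 1 mouse or several, so p-values measure only the spread between these samples.

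Cells build purine and pyrimidine nucleotides on ribose phosphate and take part of the purine ring carbons and the methyl group of thymidylate from folate-bound one-carbon units. Ribonucleotide reductase turns ribonucleotides into the deoxynucleotides used for DNA, and its genes are switched on as cells enter S phase. Activated T cells raise these pathways before they divide, whereas resting lymphocytes rely more on salvage of bases and nucleosides.

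Total counts per sample were 32032631 to 40728419. Zfp335 (chr2:164891882-164912585, mm10) was at 101, 94.3 and 103 CPM (a gene's counts relative to the library total, scaled by TMM) in WT and at 37.0, 37.9 and 40.2 in KO, a fall of 1.37 ± 0.07 on the log2 scale (SE, adjusted p = 2.14e-05). Treg markers were present in every sample, with a summed CPM of 4 markers of 2817 to 4059 in WT and 2215 to 2253 in KO (2 of 4 called lower, and 1 without WT replicate 3). Foxp3 was at 738, 642 and 1189.8 CPM in WT and 459.7, 472 and 463 in KO (log2 fold change -0.88, and -0.57 and not called without WT replicate 3). Summed CPM of 5 B cell markers was 18.0 to 20.1 in WT and 12.1 to 12.6 in KO, that of 4 myeloid markers 13.9 to 20 and 42.5 to 46.7 (3 of 4 called higher, median of the 4 log2 fold changes 1.66), that of 2 CD8 markers 9.32 to 13.2 and 12.0 to 12.7, that of 2 NK markers 1.71 to 2.58 and 3.39 to 5.05, and that of 2 erythroid markers 5.77 to 23.6 and 8.05 to 13.4. The part of these cells in the results was not tested. WT replicate 3 stood apart from the other WT samples. It lay at -58.9 on the second principal component (18.4% of the variance), against 22.1 and 34.4 for them. The KO samples nearly coincided, at 0.8, 0.4 and 1.3. The labels do not say whether the KO samples came from separate mice, so their small spread may not measure that between mice.

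Of the 35 genes, 9 were called higher in KO and none was called lower. A gene was called at a fold change above 1.5 (0.585 on the log2 scale), p under 0.05 and an adjusted p under 0.1 in edgeR's quasi-likelihood test. Among the 13594 genes tested, 24.4% were called, 11.9% higher and 12.5% lower, so the share of the 35 genes called in either direction, 25.7%, was near the background. All of the 9 were higher. The genes called were the ribonucleotide reductase genes Rrm1 and Rrm2, the thymidylate genes Tyms, Tk1 and Dut, the pool-cleaning Dctpp1, the GMP synthetase gene Gmps, the salvage gene Hprt and the mitochondrial one-carbon gene Mthfd2. The median log2 fold change of the 35 was 0.35, with 29 above 0 and 6 below, and that of all genes was -0.035.

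Smaller differences made up most of the set. At an adjusted p under 0.1 whatever the fold, 24 of the 35 were higher and 2 (Dhodh and Ctps2) lower, where 22.7% and 24.3% of all genes were. In 25 genes every KO sample was above every WT sample and in 2 every KO sample was below, against 26.2% and 27.6% of all genes (53.8% in either direction). Taking every gene at an adjusted p under 0.05, whatever its fold, called 22 genes higher and 2 lower, and 19.2% and 19.4% of all genes. A test against the fold of 1.5 itself (glmTreat) called 4 higher (Rrm1, Rrm2, Tyms and Dut) and none lower, against 6.92% and 5.48% of all genes. WT replicate 3 was the lowest WT sample in 25 of the 35, and in 39.3% of all genes. Without it, 8 genes were called higher and 1 (Dhodh) lower, the background was 13.6% higher and 13.2% lower (26.8% called), and the median was 0.30. Gmps, Hprt and Mthfd2 then missed the fold cutoff, and Dck and Prps1 passed it.

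**Figure D1:**
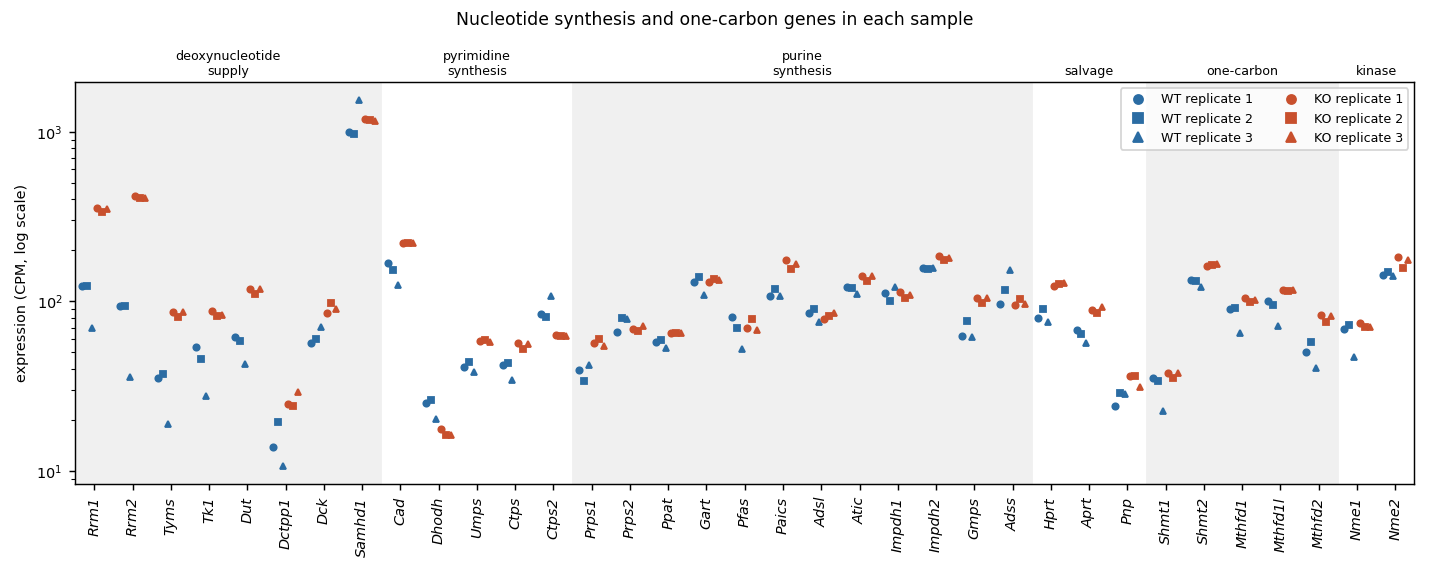
CPM (log axis) of each of the 35 genes, with the 3 WT samples in blue and the 3 KO samples in orange, grouped by pathway role. The KO samples stand clear above WT for Rrm1, Rrm2, Tyms, Tk1 and Dut, WT replicate 3 (blue triangle) is the lowest WT sample in 25 genes, and KO samples lie below WT for Dhodh and Ctps2.

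The difference was concentrated in the genes of deoxynucleotide supply. Of these 8 genes, 6 were called higher, against 11.9% of all genes, 2 were not, and the median log2 fold change was 1.04. Without WT replicate 3, 7 were called higher, against 13.6% of all genes, and the median was 0.85. WT replicate 3 was at a median of 0.606 times the mean of the other WT samples in these 8 genes. In bulk RNA, more cells that express a gene and more RNA per cell cannot be told apart, here and in every result that follows.

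Rrm2, the small subunit of ribonucleotide reductase, which holds the radical needed for catalysis and is made in S phase (chr12:24708254-24714146, mm10), had the highest fold change of the set. It was at 94.1, 93.8 and 35.7 CPM in WT and at 421, 407 and 406 in KO, 5.52-fold between means (log2 fold change 2.46 ± 0.33, adjusted p = 0.00105). The KO samples lay close together far above the highest WT sample, whereas WT replicate 3 was far below the other WT samples. Leaving that sample out gave 2.13. On a length-corrected scale (TPM, counts per exon length relative to the sum over genes), the 3 KO levels were 514, 499 and 493 TPM and the 3 WT levels 121, 116 and 42.7. Rrm2 thus was second among the 35 genes in KO, after Samhd1 at a mean of 573 TPM, with Nme2 next at 394. In WT, Nme2, at a mean of 336 TPM, was second to Samhd1 at 575, and Rrm2, at a mean of 93.3, lay well below it. A short transcript with a near-identical stretch of 419 bases, Gm48455, could take some Rrm2 reads.

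Rrm1 encodes the large subunit, which binds the substrate and the nucleotides that regulate the enzyme (chr7:102441695-102469771). It was at 123, 123 and 69.9 CPM in WT and 353, 337 and 351 in KO (log2 fold change 1.72 ± 0.20, adjusted p = 0.000598). No KO sample came near the WT range, and leaving out WT replicate 3 gave 1.49.

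Tyms, thymidylate synthase, converts dUMP to dTMP with a methylene group from folate (chr5:30038546-30073645). It was at 35.5, 37.3 and 18.8 CPM in WT and 86.3, 81.4 and 86.8 in KO (log2 fold change 1.48 ± 0.23, adjusted p = 0.002). Dut, the dUTPase that yields dUMP and keeps uracil out of DNA (chr2:125247248-125259049), was at 62.0, 58.1 and 42.6 CPM in WT and 119, 110.0 and 119 in KO (log2 fold change 1.10 ± 0.14, adjusted p = 0.000721). Both genes separated the genotypes fully, with WT replicate 3 lowest in each.

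Tk1, the cytosolic thymidine kinase of dividing cells (chr11:117815519-117826087), was at 53.7, 45.7 and 27.8 CPM in WT and 88.0, 81.8 and 83.1 in KO (log2 fold change 0.99 ± 0.21, adjusted p = 0.00781). Dctpp1, which hydrolyses dCTP and modified cytidine nucleotides (chr7:127256959-127260667), was at 13.8, 19.5 and 10.7 CPM in WT and 24.8, 24.3 and 29.2 in KO (log2 fold change 0.83 ± 0.21, adjusted p = 0.016). Neither overlapped between genotypes. Dctpp1 had the nearest approach of the 6, its highest WT sample being 19.5 and its lowest KO sample 24.3 CPM. Their log2 fold changes without WT replicate 3 were 0.76 and 0.64. Exons of Tk1 overlap the gene Afmid over 5.8% of their length, and Tyms shares stretches of up to 361 bases with other transcripts, so some of their reads could belong elsewhere.

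The other 2 genes of this group were not called. Dck, the deoxycytidine kinase of lymphoid salvage, was at 56.7, 60.1 and 70.9 CPM in WT and 85.4, 97.3 and 90.7 in KO (log2 fold change 0.54 ± 0.10, adjusted p = 0.00413), under the fold cutoff. It was highest in WT replicate 3 among the WT samples, and without that sample its log2 fold change was 0.64 and it was called. Samhd1, which breaks deoxynucleotides down, was at 995, 974 and 1536 CPM in WT and 1192, 1171 and 1165 in KO (log2 fold change 0.01 ± 0.17, adjusted p = 0.973). Its KO samples lay between the WT samples. Without WT replicate 3 the log2 fold change was 0.25 (adjusted p = 0.000377), still under the cutoff.

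**Figure D2:**
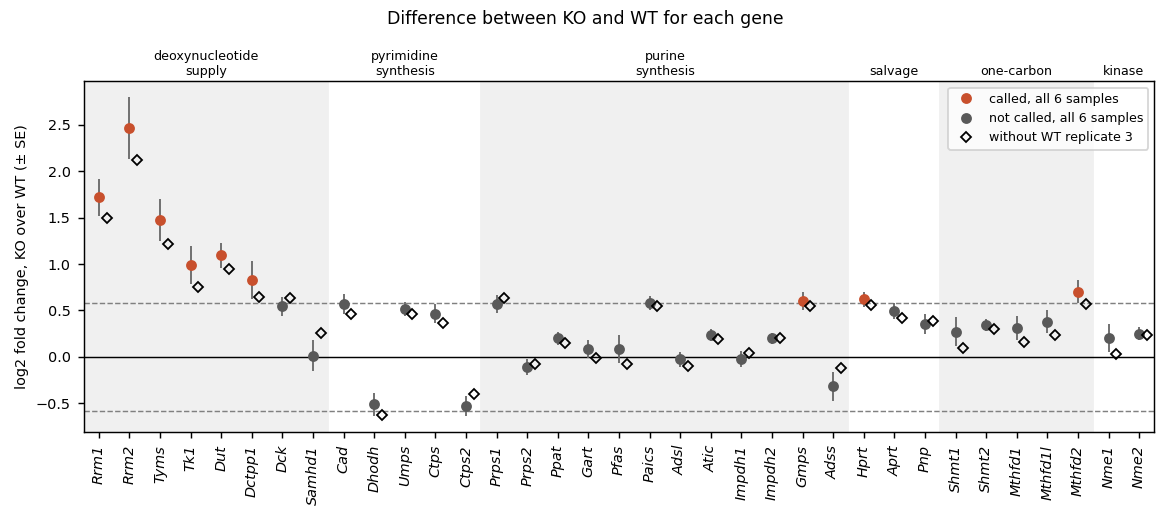
Log2 fold change of KO over WT with its SE for the 35 genes (filled circles, orange where called), and the same without WT replicate 3 (open diamonds). Dashed lines mark a fold of 1.5 in either direction. Rrm2 (2.46) and Rrm1 (1.72) are highest, only genes of deoxynucleotide supply lie above Mthfd2 (0.70), and Gmps, Hprt and Mthfd2 drop under the upper line without WT replicate 3.

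The promoter sequence of Rrm1, Rrm2, Tyms and Mthfd2 is shown because the first 3 had the largest fold changes of the set and Mthfd2 was the one-carbon gene called. Each line gives the 250 bases before an annotated start, read 5′ to 3′ on the strand of the gene from RefSeq (GRCm38.p6). CCAAT (the NF-Y motif, ATTGG on the other strand) and CACGTG (the E-box) are in capitals. For Mthfd2 all printed bases, and for Tyms the last ones, lie inside the interval given for the gene. The start used for these genes was thus not the outer end of that interval. They are chr7:102441445-102441694 on the plus strand for Rrm1, chr12:24708004-24708253 on the plus strand for Rrm2, chr5:30073626-30073875 on the minus strand for Tyms and chr6:83317605-83317854 on the minus strand for Mthfd2.
Rrm1: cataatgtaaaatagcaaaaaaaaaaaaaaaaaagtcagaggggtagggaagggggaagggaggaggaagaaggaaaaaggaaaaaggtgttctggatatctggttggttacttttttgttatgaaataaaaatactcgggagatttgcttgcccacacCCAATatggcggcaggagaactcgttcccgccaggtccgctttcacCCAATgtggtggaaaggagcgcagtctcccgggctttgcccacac
Rrm2: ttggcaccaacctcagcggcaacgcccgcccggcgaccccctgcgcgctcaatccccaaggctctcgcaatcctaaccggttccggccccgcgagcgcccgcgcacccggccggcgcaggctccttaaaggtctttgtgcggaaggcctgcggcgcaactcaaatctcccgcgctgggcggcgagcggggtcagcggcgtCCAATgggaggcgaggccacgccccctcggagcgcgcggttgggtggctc
Tyms: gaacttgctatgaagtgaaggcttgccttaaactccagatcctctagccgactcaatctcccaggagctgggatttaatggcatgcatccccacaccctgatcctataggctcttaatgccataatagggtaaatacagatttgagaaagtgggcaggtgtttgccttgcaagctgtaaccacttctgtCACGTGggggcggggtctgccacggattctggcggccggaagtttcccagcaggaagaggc
Mthfd2: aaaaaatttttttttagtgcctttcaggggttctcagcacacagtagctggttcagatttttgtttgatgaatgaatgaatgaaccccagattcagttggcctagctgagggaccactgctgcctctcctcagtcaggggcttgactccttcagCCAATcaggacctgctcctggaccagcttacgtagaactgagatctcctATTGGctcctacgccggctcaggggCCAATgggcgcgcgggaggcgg
Rrm1 held CCAAT with its first base 91 and 45 bases before the start, Rrm2 held it 50 bases before, and Mthfd2 held it on either strand at 96, 47 and 22 bases. Tyms held the E-box 61 bases before the start and no CCAAT.

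Promoters of 33 of the 35 genes could be read, 39 in all with alternative starts (250 bases before to 50 after each start, both strands searched). CCAAT was in 13 of the 39, or 33.3%, against 37.4% of all 32851 promoters and 37.9% of the 13477 promoters of genes tested here. The E-box was in 6 (15.4%, against 7.15% of all and 9.56% of those tested), of the genes Atic, Impdh2, Nme1, Paics and Tyms. The palindromic NRF1 motif was in 2 (5.13%, against 0.971% and 1.97%), of Ctps and Shmt2, and the ATF4 element TGATGNAA was in 1 (2.56%, against 3.97% and 2.57%), of Prps1. The string TTTNGCGC, a form of the E2F motif, was in none of the 39, in 1.38% of all promoters and in 2.34% of those of genes tested. It was in 7 of 18 promoters (38.9%) of a list of DNA replication genes. Other forms of the E2F motif were not searched, so these counts do not show whether the genes lack E2F sites. Each motif was counted on its own, so matches of different motifs may overlap, and a match describes letters only.

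Because Tregs of the genotypes differed in markers of dividing cells, the deoxynucleotide genes were set beside those markers. All 31 listed genes of replication and mitosis were called higher in KO, against 11.9% of all genes. That list was chosen with earlier results of these data known, so the comparison is not an independent one. The 18 replication genes had a median of 1.13 on the log2 scale and the 13 mitosis genes one of 1.94. The proliferation marker Mki67 was at 441, 445 and 199 CPM in WT and 1568, 1549 and 1507 in KO. WT replicate 3 was the lowest WT sample in all 31, and without it 30 were called.

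As a percent of the summed CPM of the replication genes in the same sample, Rrm2 was at 5.29%, 5.32% and 3.06% in WT and 12.0%, 12.1% and 12.1% in KO. Rrm1 was at 6.91%, 6.97% and 6.0% in WT and 10%, 10% and 10.4% in KO. Tyms was at 2.0%, 2.11% and 1.61% against 2.45%, 2.42% and 2.58%. These 3 genes were thus higher in KO on this scale too, by 1.40, 0.62 and 0.38 on the log2 scale, and no sample overlapped.

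The remaining deoxynucleotide genes were not higher relative to the replication genes. Dut was at a mean of 3.48% in WT and 3.40% in KO, Tk1 at 2.67% and 2.47%, and Dctpp1 at 0.935% and 0.765%, each with overlap between genotypes. Dck was at 3.19%, 3.40% and 6.08% in WT and 2.43%, 2.89% and 2.70% in KO, and Samhd1 at 56.0%, 55.2% and 132% in WT and 33.9%, 34.9% and 34.7% in KO. Every KO sample of both was below every WT sample. WT replicate 3 was the highest, and without it the log2 ratios went from -0.66 to -0.30 for Dck and from -1.23 to -0.69 for Samhd1. Set against the mitosis genes instead, Rrm2 was the only 1 of the 8 that was higher in KO (log2 ratio 0.52), whereas Rrm1 and Tyms were lower, at -0.32 and -0.54. No test was run on these shares, and the part of dividing cells in the rise of the deoxynucleotide genes was not tested.

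**Figure D3:**
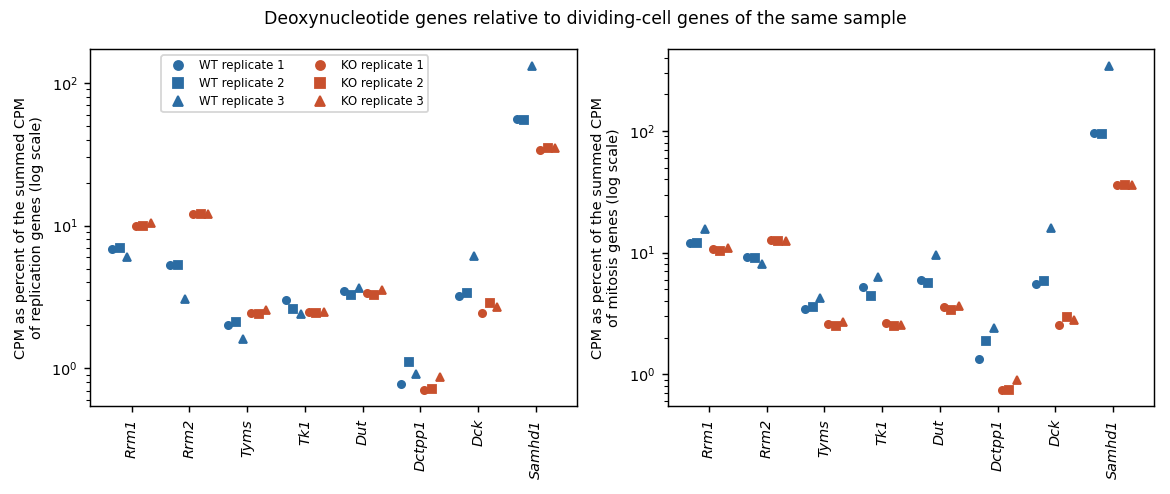
CPM of the 8 deoxynucleotide genes as a percent of the summed CPM of 18 replication genes (left) and 13 mitosis genes (right) in the same sample, on log axes, with 3 WT and 3 KO samples as points. Rrm2 is above WT in every KO sample in both panels, Rrm1 and Tyms only in the left one, and Samhd1 on the left is at 33.9% to 34.9% in KO, below 55.2% and 56.0% in WT replicates 2 and 1 and 132% in WT replicate 3.

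None of the 5 genes of pyrimidine synthesis was called. Each separated the genotypes, with 3 higher and 2 lower in KO. Of all genes, 26.2% were higher and 27.6% lower without overlap (53.8% in either direction). Cad, which carries out the first steps of the pathway in 1 polypeptide, was at 168, 154 and 125 CPM in WT and 222, 222 and 220.2 in KO (log2 fold change 0.57 ± 0.11, adjusted p = 0.00438). Umps, which makes UMP, was at 41, 43.8 and 38.2 CPM against 58.4, 59.5 and 58.0 (0.52 ± 0.08, adjusted p = 0.00168). In both, the KO samples lay close together above the WT samples. Cad passed the fold cutoff in a DESeq2 fit (0.59) and without WT replicate 1 (0.67) or WT replicate 2 (0.59). Without WT replicate 3 both Cad and Umps were at 0.46.

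Dhodh, the mitochondrial enzyme that stands between the steps of Cad and Umps, went the other way. It was at 25.2, 26.2 and 20.2 CPM in WT and 17.7, 16.2 and 16.2 in KO (log2 fold change -0.51 ± 0.12, adjusted p = 0.0133). Every KO sample was below the lowest WT sample. Leaving out WT replicate 3 gave -0.63, and the gene was then called lower. Neighbouring steps of 1 pathway therefore differed in sign.

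The CTP synthases, which turn UTP into CTP, were also opposed. Ctps was at 42.2, 43.4 and 34.4 CPM in WT and 56.8, 52.3 and 56.2 in KO (log2 fold change 0.46 ± 0.10, adjusted p = 0.00977). Ctps2 was at 83.9, 80.5 and 107 CPM in WT and 63.2, 62.3 and 62.3 in KO (-0.53 ± 0.11, adjusted p = 0.00731). Their genotypes did not overlap in either gene, and neither passed the fold cutoff.

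Of the 12 genes of purine synthesis, 1 was called, 6 passed an adjusted p of 0.1, all higher, and the median log2 fold change was 0.14. Among all genes, 24.4% were called (11.9% higher), and 22.7% were higher at an adjusted p under 0.1. Gmps, which aminates XMP to GMP (chr3:63963633-64021554), was the one called. It was at 62.8, 76.7 and 61.4 CPM in WT and 104, 97.8 and 104 in KO (0.61 ± 0.10, adjusted p = 0.00222). The genotypes did not overlap, but its log2 fold change without WT replicate 3 was 0.54, under the cutoff. It shares 276 near-identical bases with other transcripts.

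Paics, which joins 2 middle steps of the pathway, was just outside the cutoff, at 107, 119 and 107 CPM in WT and 176, 156 and 166 in KO (log2 fold change 0.58 ± 0.08, adjusted p = 0.000958). Its exons overlap those of its neighbour Ppat, which encodes the first committed enzyme, over 10.9% of their length, and the strand of the counting was not stated. Ppat itself was at 53.0 to 59.4 CPM in WT and 65.0 to 65.4 in KO (0.20 ± 0.07, adjusted p = 0.0634). Both were separated between genotypes, with the larger difference in Paics. A DESeq2 fit put Paics at 0.597 and called it.

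Prps1, a synthetase of the ribose donor PRPP, was at 39.3, 34.0 and 42.1 CPM in WT and 56.9, 60.1 and 54.5 in KO (log2 fold change 0.57 ± 0.10, adjusted p = 0.00295). Without WT replicate 3 it was at 0.64 and called, and in a DESeq2 fit of all samples it was at 0.589 and called. The related Prps2 was at 66.0 to 79.5 CPM in WT and 66.6 to 71.9 in KO (-0.11 ± 0.09, adjusted p = 0.362), with overlapping ranges.

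The other 7 purine genes differed less. Atic, which closes the purine ring with a formyl group from folate, and Impdh2, the IMP dehydrogenase of dividing cells, had log2 fold changes of 0.24 (adjusted p = 0.028) and 0.20 (adjusted p = 0.0298). Impdh2 has a processed copy with a stretch of 1545 near-identical bases, so its counts are uncertain. Gart (0.08), Pfas (0.08), Adsl (-0.03) and Impdh1 (-0.02), which encode middle steps and the other IMP dehydrogenase, had adjusted p values of 0.534 to 0.849, and their samples overlapped. Gart overlaps another gene model over 17.0% of its exons. Adss, which starts the branch to AMP, was at 96.4, 117 and 154 CPM in WT and 95.4, 103 and 95.9 in KO (log2 fold change -0.32 ± 0.15, adjusted p = 0.143), a difference that shrank to -0.12 without WT replicate 3.

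Of the 3 salvage genes, 1 was called and 3 passed an adjusted p of 0.1, all higher in KO. The shares over all genes were 11.9% called higher and 22.7% higher at an adjusted p under 0.1. Hprt, which returns hypoxanthine and guanine to nucleotides (chrX:52988078-53021660), was at 80.1, 90.3 and 75.5 CPM in WT and 124, 126 and 128 in KO (log2 fold change 0.62 ± 0.08, adjusted p = 0.000841). Aprt, which does the same for adenine, was at 67.4, 64.5 and 57.0 CPM against 88.4, 85.1 and 92.5 (0.49 ± 0.08, adjusted p = 0.00271). Every KO sample of both was above every WT sample, and without WT replicate 3 Hprt was at 0.56 and was not called. Pnp, the purine nucleoside phosphorylase, was at 0.35 (adjusted p = 0.0338). It shares 1084 near-identical bases with the neighbouring Pnp2 and overlaps other gene models over 34.8% of its exons, so its value is uncertain. Pnp2 held few counts, at a mean of 0.516 CPM in WT and 1.51 in KO, against 27.2 and 34.6 for Pnp.

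All 5 one-carbon genes had higher means in KO and no overlap between genotypes in CPM, where 26.2% of all genes were higher without overlap. Shmt1 was only just separate, at 35.1 CPM in WT replicate 1 and 35.2 in KO replicate 2. In TPM these samples overlapped, at 34.7 and 33.1. Of the 5, 4 passed an adjusted p of 0.1 and 1 was called. Among all genes, 22.7% were higher at that adjusted p, and 11.9% were called higher. Mthfd2, the mitochondrial enzyme that oxidises methylene-tetrahydrofolate and is rare in resting adult cells (chr6:83305704-83326011), was at 50.1, 57.6 and 40.5 CPM in WT and 83.2, 75.4 and 82.3 in KO (log2 fold change 0.70 ± 0.13, adjusted p = 0.00381). Without WT replicate 3 the log2 fold change was 0.57 and the call was lost. Its mitochondrial partners were closer to WT: Shmt2, which takes a carbon from serine, had a log2 fold change of 0.34 (adjusted p = 0.00457) and Mthfd1l, which releases formate, one of 0.38 (adjusted p = 0.0422). The cytosolic Mthfd1 and Shmt1 were at 0.31 (adjusted p = 0.0926) and 0.27 (adjusted p = 0.218). The log2 fold changes of Mthfd1l, Mthfd1 and Shmt1 without WT replicate 3 shrank to 0.24, 0.16 and 0.09. WT replicate 3 was lowest in all 5, at a median of 0.729 times the other WT samples.

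The nucleoside diphosphate kinase genes Nme1 and Nme2, whose enzymes pass phosphate between diphosphates and triphosphates, were not called, with log2 fold changes of 0.20 (adjusted p = 0.34) and 0.25 (adjusted p = 0.0315). Leaving out WT replicate 3 gave 0.025 for Nme1 and 0.23 for Nme2. A readthrough transcript covers 48.9% of the exon length of Nme2 and 12.9% of that of Nme1, and Nme2 has processed copies, so reads may have been divided among them.

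Within a sample, ratios of CPM between paired enzymes or subunits do not depend on the scaling of the library. They were compared for 7 pairs, and 5 separated the genotypes. With 3 samples against 3 the smallest exact permutation p is 0.1 (two-sided), so none could pass 0.05, and each of the 5 had that p (0.14 after Benjamini-Hochberg adjustment over the 7).

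Over all 6 samples, the largest shift was between the CTP synthases. Ctps2 over Ctps was 1.99, 1.86 and 3.11 in WT and 1.11, 1.19 and 1.11 in KO, a fall of 0.99 on the log2 scale. WT replicate 3 was farthest from KO, and without it the log2 fold changes of Ctps and Ctps2 shrank to 0.36 and -0.40. Rrm2 over Rrm1 was 0.766, 0.763 and 0.511 in WT and 1.19, 1.21 and 1.16 in KO, a rise of 0.83 for the subunits of 1 enzyme. WT replicate 3 was farthest from KO in this pair too. Prps2 over Prps1 was 1.68, 2.34 and 1.85 in WT and 1.21, 1.11 and 1.32 in KO, 0.68 lower on the log2 scale.

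Mthfd2 over Mthfd1, the mitochondrial against the cytosolic dehydrogenase, was 0.39 higher in KO, and Impdh2 over Impdh1 was 0.22 higher. Shmt2 over Shmt1 and Nme2 over Nme1 differed by 0.05 and 0.02, with the KO samples between the WT samples (exact permutation p = 1.0). In both pairs WT replicate 3 had the highest ratio, and without it the differences were 0.21 and 0.20.

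**Figure D4:**
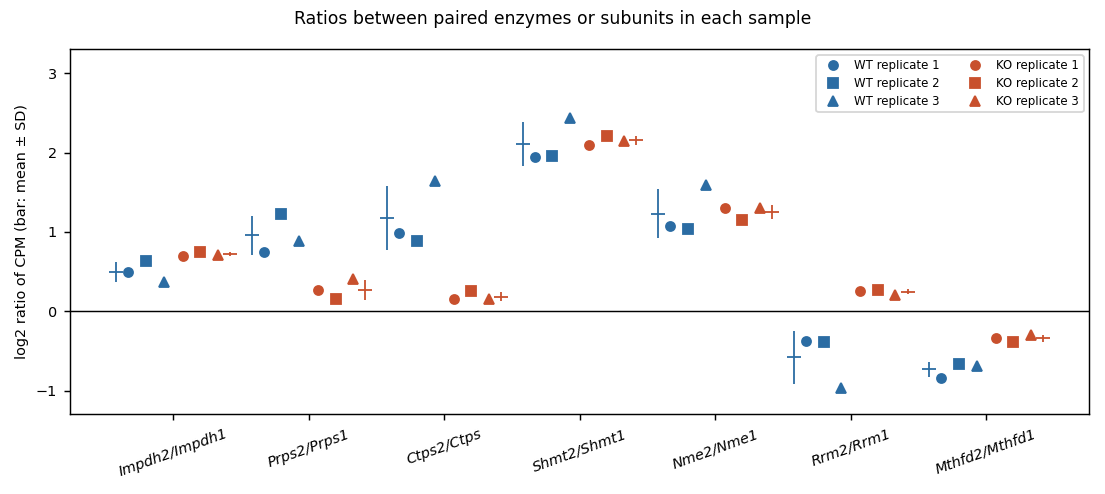
Log2 ratio of CPM between 7 pairs of genes in each of 3 WT and 3 KO samples, with the mean ± SD of each genotype beside the points. KO lies below WT for Ctps2/Ctps and Prps2/Prps1, above it for Rrm2/Rrm1, Mthfd2/Mthfd1 and Impdh2/Impdh1, and within the WT range for Shmt2/Shmt1 and Nme2/Nme1.

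Other genes of these pathways were not mainly higher. Of 69 further genes listed, 65 were in the table and tested. Of these, 6 were called higher and 9 lower, against 11.9% and 12.5% of all genes, and the median log2 fold change was -0.03. Without WT replicate 3, 9 were called higher and 9 lower. Of those called higher, 4 had a mean of at least 5 CPM, and of those called lower 6 had.

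Those called higher came from several steps. Ahcy, which clears the product of methylation reactions, was at 125, 142 and 123 CPM in WT and 257, 263 and 259 in KO (log2 fold change 1.0, adjusted p = 9.32e-05). Its KO samples all lay above the WT samples. Psat1, an enzyme of serine synthesis, was at 0.67 (adjusted p = 0.0234) and at 0.46, not called, without WT replicate 3, and Cmpk1, the kinase of CMP and UMP, was at 0.62 (adjusted p = 0.00178).

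The lower genes included the carrier that brings reduced folates into the cell. Slc19a1 was at 44.7, 44.8 and 41.9 CPM in WT and 21.4, 25.4 and 23.7 in KO (log2 fold change -0.90, adjusted p = 0.000346). Dguok, the mitochondrial deoxyguanosine kinase, was at 33.2, 34.8 and 29.9 CPM in WT and 19.0, 20.3 and 20.9 in KO (-0.70, adjusted p = 0.00111). Ampd3, an AMP deaminase, was at -0.87, Uckl1, of the uridine kinase family, at -0.68, Guk1, guanylate kinase, at -0.67, and Dctd, dCMP deaminase, at -0.60. The mitochondrial thymidine kinase gene Tk2, named after its values were seen, was at -0.51 (adjusted p = 0.0246) and was not called, whereas cytosolic Tk1 rose. Rrm2b, the ribonucleotide reductase subunit used outside S phase and likewise named afterwards, was at 20, 24.0 and 25.6 CPM in WT and 20.9, 22.5 and 23.1 in KO (-0.06, adjusted p = 0.704), so that only the S-phase subunit of the pair passed the test.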

How the data were processed

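RNA-Seq of sorted Tregs was analyzed for 3 WT and 3 KO samples, grouped by their titles. The study's methods name SOAPnuke for read filtering, HISAT2 for alignment to mm10 (at most 1 alignment reported for a read) and StringTie for quantification. The authors deposited whole-number counts per gene, not normalized. The annotation and strand used in counting are not given in the sources used here. The smallest sum of a row was 60, so rows with few counts had been left out.

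Counts were tested with edgeR 4.0.16 in R 4.3.3 (filterByExpr with a minimum of 10, scaling by TMM, the trimmed mean of M values, glmQLFit and glmQLFTest over all 6 samples, no covariate). Of 13709 rows, 13594 were tested and 115 removed. P-values were two-sided and adjusted by Benjamini-Hochberg over all genes tested. A gene was called at a fold above 1.5, p under 0.05 and adjusted p under 0.1, the study's cutoffs. Each SE was obtained by dividing the absolute log2 fold change by the root of the F statistic. At these depths 3 counts equal 0.0747 to 0.0913 CPM, which covers counting error only. The script was tested on simulated data. TPM used exon lengths of GENCODE M21, found for 97.7% of the rows.

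All 35 members were named, with values in every sample for those called. Genes of the pathway list were named where called with a mean of at least 5 CPM. A result of that list is not reported here. The members and the lists (pathway, dividing cells, cell type markers) were chosen with earlier results of these data known. Of the marker lists, 1 of 5 B cell genes was called lower, 1 of 2 CD8 and 1 of 2 NK genes higher, 2 of 4 Treg genes (Foxp3 and Ikzf2) lower, and none of 3 T cell or 2 erythroid genes. Foxp3 was not called without WT replicate 3, whereas 1 T cell and 1 erythroid gene were called lower.

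Ratios of paired genes were compared by exact permutation tests over samples. A near-identical copy was a transcript with at least 200 bases at 95% identity. Alternatives were DESeq2 1.42.0, other scalings, filters and cutoffs, a replicate block, and leaving out each sample. Promoters came from RefSeq for GRCm38.p6.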

Additional observations from a re-analysis of the deposited data

How the results depend on the processing

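Of 490 fold changes of single members under alternatives, 437 kept direction and side of the cutoffs, 33 gained a call, 11 lost one and 9 changed sign. The 9 called members stayed called with DESeq2, which also called Cad (0.59), Prps1 (0.589) and Paics (0.597) higher (12 called in all). DESeq2 called 12.5% of all genes higher. The 9 also stayed called in the fit with a replicate block (9 called). That fit called 3190 of all genes, 3100 of them among the 3318 of the fit without it. Deviations of same-numbered samples from their group means correlated at 0.038, 0.04 and -0.012, so the numbers were not taken to pair the samples. Library totals alone lost Gmps (0.57) and Hprt (0.58). A test against the fold of 1.5 (glmTreat) called 4 members (Rrm1, Rrm2, Tyms and Dut), 4 pathway genes, 26 dividing-cell genes and 1686 of all genes. An adjusted p under 0.05 without a fold cutoff called 24 members, 26 pathway genes and 5244 of all genes. Leaving out 1 sample at a time gave 9 to 12 members, 11 to 18 pathway genes, 30 to 31 dividing-cell genes and 2867 to 3667 of all genes. Gmps also lost its call without WT replicate 1 (0.56), and Ctps2 was called lower without WT replicate 2 (-0.61). The sign changes were in Samhd1 with library totals (-0.022), and, with 1 sample left out, in Samhd1 (-0.11 to 0.252), Gart (-0.016 to 0.156), Pfas (-0.079 to 0.234), Adsl (-0.102 to 0.025) and Impdh1 (-0.095 to 0.037). The log2 difference between genotypes in Shmt2 over Shmt1 ranged from -0.039 to 0.206, and that in Nme2 over Nme1 from -0.076 to 0.203. With the mitosis genes in place of the replication genes, log2 ratios were -0.32 for Rrm1, 0.52 for Rrm2, -0.54 for Tyms, -1.04 for Tk1, -0.998 for Dut, -1.24 for Dctpp1, -1.71 for Dck and -2.32 for Samhd1. Without WT replicate 3, an alternative chosen after seeing the data, log2 ratios relative to the replication genes were 1.18 for Rrm2, 0.55 for Rrm1, 0.28 for Tyms, 0.004 for Dut, -0.18 for Tk1, -0.30 for Dctpp1, -0.30 for Dck and -0.69 for Samhd1. The cause of these changes was not tested. The lowest value of a member in any sample was 10.7 CPM, against 0.0747 to 0.0913 CPM for 3 counts.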
